A study of Mus musculus with 25 samples.

Results

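The comparison described here set 3T3-L1 adipocytes fed CLA for 8 h against 3T3-L1 adipocytes fed LA for 8 h. Its members were picked by label, as the 3 arrays labelled CLA fed and the 3 arrays labelled LA fed at the second of the study's time points. This makes 6 of the 25 arrays of the series. The comparison itself was chosen with earlier results of these data known. 3T3-L1 is an established mouse line of fibroblast-like preadipocytes that become fat cells in culture, and the labels call the replicates biological. The other 19 arrays hold the same feeds at 4 h (5 arrays), 12 h (8 arrays) and 24 h (6 arrays), and they entered the fits to estimate the spread and the array sets described next and to compare the time points. The labels do not spell out LA and CLA, which are the usual short names of linoleic acid and conjugated linoleic acid, and they give no dose or isomer. Both groups received a fatty acid, so each difference is between these feeds and not against unfed cells. All cells come from a single line.

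Linoleic acid is the main plant omega-6 fatty acid, and conjugated linoleic acid is a family of its isomers, some of which are known to lower the fat content of mice and of cultured adipocytes. Fat cells hold their identity through the transcription factors PPARγ and C/EBPα, which maintain genes for glucose uptake, lipid synthesis and lipid storage. Cells that meet growth factors or stress switch on immediate early transcription factors, the electrophile sensor NRF2 raises antioxidant enzymes, and the factor ATF4 raises genes for amino acid supply.

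Each array gave 1 background-subtracted intensity for each of 45101 probe sets. The mean intensity of 5 of the 6 arrays lay between 124 and 148, and the LA array of replicate 3 was dimmer, at 76.9, with 73.8% of its values above 0. The defining fat cell genes were abundant, since the summed level of 10 adipocyte markers was 36820 to 44270 in the LA arrays and 24080 to 40790 in the CLA arrays. Of these markers, Cebpa and Slc2a4 were called lower. Summed over 7 preadipocyte markers the level was 9895 to 15190 in LA and 10320 to 23540 in CLA, with none called. The sum of 8 macrophage markers was 121 to 309 in LA and 277 to 347 in CLA, where Ptprc and Itgam were near 0 and only Cd14 was called. The 4 endothelial and 4 muscle markers summed to at most 51.4 on any array, with Pecam1 and Myog at or near 0. Grouped by their 2000 most variable probe sets without use of labels, the 25 arrays fell into 5 array sets, which crossed the treatments only in part. Both arrays of replicate 1 at 8 h lay in 1 set and both arrays of replicate 2 in another, but the LA array of replicate 3 lay in the dimmest set and the CLA array of replicate 3 in a different one. The main fit carried the array set as a term, a choice made with earlier results of these data known. The pairs of replicates 1 and 2 are the only direct comparisons within a set at 8 h. The arrays of replicate 3 are set against each other through arrays of other times, so those arrays also bear on the 8 h estimates. The estimate for Agpat2, for example, was -0.77 in this fit and -1.44 without the array sets. What the array sets stand for is not given in the labels and was not tested. The sets were cut from the same intensities that the fit uses and were then taken as known.

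Of 14457 genes tested, 616 were called at a Benjamini-Hochberg adjusted p under 0.05 in limma, which is 4.26% of them. The 376 genes higher in CLA were 2.6% of the tested genes and the 240 genes lower in CLA were 1.66%. Of these, 84 were higher and 22 lower by at least 2-fold. The median difference of all tested genes was -0.02 on the log2 scale, and the median size was 0.69 among the genes called higher and -0.61 among those called lower. All 616 had the same sign in the replicate 1 pair, in the replicate 2 pair and in the fit, as did 8074 of the 14457 tested genes. The 3 CLA arrays lay wholly above or below the 3 LA arrays for 54.1% of the called genes and for 12.2% of all tested genes. Each gene was read from its brightest probe set. Of the 616 called genes 375 had several probe sets, and 82 had at least 1 of the opposite sign, with 0 called the other way. Probe sets of the same gene also differed in size among genes named below. Among those called higher, the lowest probe set was at -0.12 for Anxa2, 0.02 for Atf4 and 0.03 for Angptl4. It was at 0.22 for Cyp51 and Ddit3 and 0.42 for Chka. For Akt2, called lower, the weakest was at -0.14. These are examples and not a full list.

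The number of calls depended on how the arrays were modelled. With the replicate number as a block in place of the array sets 103 genes were called, 65 higher and 38 lower, and 102 of them were among the 616. This block gives each replicate number 1 term over all 25 arrays and is not a paired test of the 8 h arrays. Both feeds hold the same replicate numbers at 8 h. The block therefore leaves each 8 h estimate equal to that without the array sets, by design, and changes only its standard error. Without the array sets 5 genes were called, and all 5 were among the 616. The 6 arrays of 8 h fitted alone in limma gave 0 calls, with 800 genes at an unadjusted p under 0.05, and 0 calls with the replicate block, with 1324 such genes. The split of higher against lower calls moved with the scaling, from 376 against 240 after quantile normalisation to 255 against 15 on the intensities as deposited and 414 against 39 with each array centred on its median. All 376 and all 240 genes kept their sign under both scalings. Sizes also moved, since 166 of the 616 differences changed by over 1.5 times without the array sets and 117 with the offset at the 25th percentile. The median of 23 of the 36 gene lists described here moved as far without the array sets, and for 3 of them it changed sign. Every array of the comparison but the CLA array of replicate 3 moved the count by over 1.5 times when left out, to 299, 316 and 393 without LA replicate 1, 2 or 3, and to 241 and 184 without CLA replicate 1 or 2. It was 504 without CLA replicate 3. Without both arrays of replicate 3 there were 350 calls, 306 of them among the 616, and all 616 kept their sign. The genes nearest the threshold were Ammecr1l inside it, 0.54 higher on the log2 scale with an adjusted p of 0.05, and Birc3 outside it, 0.56 higher with an adjusted p of 0.0502.

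**Figure D1:**
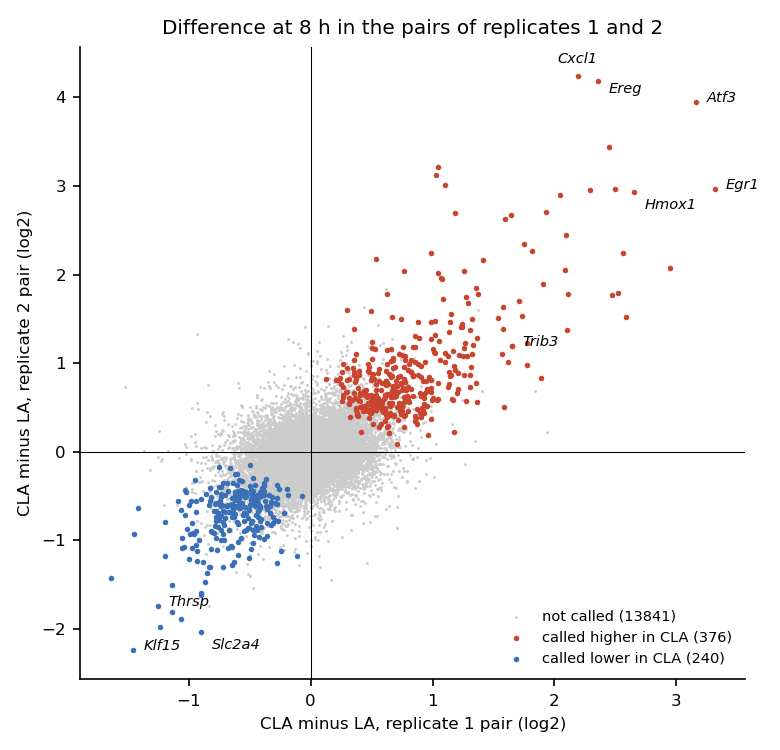
Difference between CLA and LA at 8 h (log2 of normalised intensity plus 32) in the replicate 1 pair (horizontal axis) and in the replicate 2 pair (vertical axis). Each point is a gene, coloured where it was called higher (376) or lower (240) in CLA and grey where it was not called (13841). All called genes lie in the upper right or the lower left quadrant, and these pairs are part of the fit that made the calls.

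Transcription factors of the immediate early class rose together in CLA-fed cells. Of 25 tested genes of this list, 22 were called higher and none lower, against 2.6% of all tested genes called higher, and the median difference was 1.23 on the log2 scale against -0.02 for all genes. Below, intensities are normalised values in the order of replicates 1, 2 and 3, and differences are CLA minus LA on the log2 scale of the intensity plus 32, with the standard error (SE) of the fit and n = 3 arrays in each group. Atf3, a stress-induced repressor of the CREB and ATF family, measured 21.2, 10.3 and 157 in the LA arrays and 444, 619.6 and 280.5 in the CLA arrays. Every CLA array was above every LA array, and the LA array of replicate 3 was the highest of its group. The difference was 3.29 ± 0.27 with an adjusted p of 4.07e-07 in limma. Egr1, a zinc finger factor of the growth factor response, stood at 169.6, 194 and 255 in LA and at 1982, 1741 and 1382 in CLA, again without overlap (2.86 ± 0.36, limma adjusted p 8.45e-05). Jun, a subunit of the AP-1 complex, was at 92.3, 56.4 and 198 and 481, 625 and 596 (2.10 ± 0.34, limma adjusted p 0.00082). Its 3 CLA arrays were close to each other and all above LA. Fosl1, which encodes the AP-1 subunit Fra-1, spread more widely in LA, from 34.4 to 464, and measured 481, 1118 and 1044 in CLA (2.17 ± 0.38, limma adjusted p 0.00161). Ier3, an early gene tied to cell survival, went from 118, 38.2 and 110.4 to 788, 732 and 361 (2.73 ± 0.30, limma adjusted p 1.07e-05). Ifrd1, a transcriptional co-regulator, went from 384, 360.2 and 275 to 2425, 1826 and 912 (2.16 ± 0.21, limma adjusted p 3.76e-06). Neither gene overlapped between the groups. The Myc oncogene was called higher by 0.97 ± 0.16, and the small Maf factor Mafk by 0.89 ± 0.14, but the groups of both overlapped. With the replicate block 7 of the 22 remained called, namely Ifrd1, Ier3, Jun, Egr1, Ier5, Atf3 and Klf6, and the adjusted p of the other 15 ran from 0.0567 to 0.821. Without the LA array of replicate 3 the calls of Klf10 and Ier2 were lost, with adjusted p of 0.0549 and 0.0808.

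**Figure D2:**
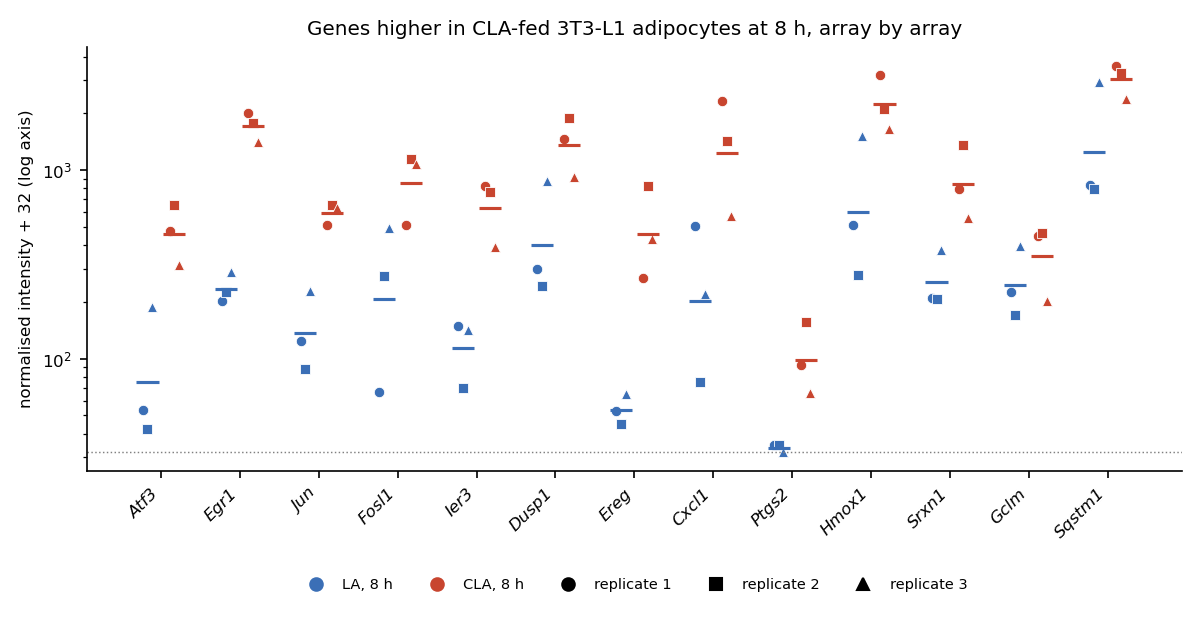
Normalised intensity plus 32 on a log axis for 13 genes called higher in CLA at 8 h, in each of the 3 LA arrays (blue) and 3 CLA arrays (red); horizontal bars are means on the log scale, marker shapes give the replicate and the dotted line marks an intensity of 0. The LA array of replicate 3 is the highest LA array for Atf3, Egr1, Jun, Fosl1, Dusp1, Ereg, Hmox1, Srxn1, Gclm and Sqstm1, and for Gclm and Sqstm1 it lies above a CLA array.

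Feedback inhibitors of the ERK kinase cascade were higher as well, with 11 of 19 called higher, none lower, and a list median of 0.62. Of all tested genes, 2.6% were called higher. Dusp1, a phosphatase that inactivates MAP kinases, measured 267, 211 and 847 in LA and 1434, 1858 and 888 in CLA (2.31 ± 0.33, limma adjusted p 0.000255). The groups did not overlap, though the LA array of replicate 3 came close to the CLA array of that number. Dusp5, a nuclear phosphatase specific for ERK, was listed at 0 in all 3 LA arrays and at 64.6, 166 and 101 in CLA. No fold is given for Dusp5, whose difference of 2.22 ± 0.31 depends on the offset (limma adjusted p 0.000212). Dusp6, the cytoplasmic ERK phosphatase, was higher by 1.24 ± 0.22 and Dusp16, which acts on JNK and p38, by 1.34 ± 0.19, neither with overlap. Phlda1, an early gene that follows ERK activity, went from 107, 112 and 85.5 to 325, 488 and 279 (1.71 ± 0.18, limma adjusted p 4.99e-06). Etv5, Spred2 and Dusp4 were called higher by 0.88 ± 0.13, 0.73 ± 0.12 and 0.93 ± 0.21, with groups that overlapped. Dusp5 and Phlda1 stayed called with the replicate block, where the adjusted p of the other 9 ran from 0.0522 to 0.47. The calls of Spred1 and Dusp10 were lost without the LA array of replicate 3 (adjusted p of 0.0594 and 0.075).

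Among 11 tested ligands and receptors of the EGF family, Ereg and Adam17 were called higher and none lower. This is 18.2% of the list, against 4.26% of all tested genes called. Ereg, which encodes the EGF receptor ligand epiregulin, was 20.5, 13.1 and 33.2 in LA and 238, 792 and 398 in CLA. The LA values were near background and every CLA array was several times higher (3.06 ± 0.45, limma adjusted p 0.000344, and 0.00827 with the replicate block). Adam17, the protease that sheds these ligands, went from 188, 183 and 48.7 to 319.6, 414 and 217 (0.86 ± 0.16, limma adjusted p 0.00305, and 0.0895 with the replicate block). The other 9 differed by -0.59 to 0.45, and the list median of -0.04 was 0.03 on the intensities as deposited. Ptgs2, the inducible cyclooxygenase of prostaglandin synthesis, was at 2.8, 2.7 and 0 in LA and 61.1, 124 and 33.9 in CLA, at or near background in LA, and a low signal in every array (1.59 ± 0.27, limma adjusted p 0.00113, and 0.0174 with the replicate block). Its size depends on the offset, at 4.72 with the offset at the 25th percentile and 1.12 with that at the 75th, and so does that of Ereg, at 4.28 and 2.58. Of 13 tested genes of prostanoid synthesis and reception, Ptgs2 and the prostacyclin receptor gene Ptgir were called higher (15.4%) and none lower. The list median was 0.09. Ptgir was dim, at 24.4, 0 and 4.1 and 58.6, 17 and 22.5, with overlap (0.68 ± 0.16, adjusted p 0.12 with the replicate block).

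Antioxidant genes that NRF2 is known to control formed the next group, with 11 of 32 called higher and none lower. This is 34.4% of them, against 4.26% of all tested genes called. The list median was 0.29, and 0.10 without the array sets or with the replicate block. The heme-degrading enzyme gene Hmox1 measured 479, 246 and 1489.6 in LA and 3185, 2085 and 1631 in CLA. All 3 CLA arrays were above LA, the LA array of replicate 3 by far the nearest (2.48 ± 0.28, limma adjusted p 1.07e-05). Srxn1, which encodes sulfiredoxin, the repair enzyme of peroxiredoxins, went from 178, 177 and 346 to 767, 1328 and 524 without overlap (2.32 ± 0.24, limma adjusted p 4.85e-06). Sqstm1, the autophagy adaptor p62, was at 804, 763 and 2902 in LA and 3526, 3261 and 2355 in CLA. Here the LA array of replicate 3 lay above the CLA array of replicate 3, so the groups overlapped (1.83 ± 0.18, limma adjusted p 4.29e-06). Gclm, the modifier subunit of the enzyme that starts glutathione synthesis, showed the same order, with 193, 138 and 364 in LA and 414, 435 and 172 in CLA (1.14 ± 0.13, limma adjusted p 1.68e-05). The gene of NRF2 itself, Nfe2l2, was 357, 309 and 245 in LA and 663, 590.4 and 438 in CLA, without overlap (0.86 ± 0.14, limma adjusted p 0.000723). Txnrd1, cytosolic thioredoxin reductase, rose by 1.11 ± 0.16 without overlap. The carbonyl reductase gene Cbr3 rose by 1.24 ± 0.23 and Gstp1, a glutathione transferase and 1 of the 5 most abundant genes called higher, by 0.49 ± 0.13, both with overlap. Nfe2l2 and Txnrd1 kept their calls with the replicate block, with adjusted p of 0.0134 and 0.0187, and the other 9 had values from 0.0953 to 0.713. Without the LA array of replicate 3, Gstp1 lost its call (adjusted p 0.095). Of 8 metallothionein and zinc transporter genes 3 were called higher (37.5%), with a list median of 0.44. They were Mt2 (1.05 ± 0.23), Slc30a4 (0.72 ± 0.12) and Slc39a14 (0.60 ± 0.14), and none was called with the replicate block (adjusted p from 0.129 to 0.464).

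The genes of the integrated stress response moved less uniformly. Of 19 tested, 5 were called higher and 1 lower, 31.6% against 4.26% of all tested genes. The list median was 0.14 (0.02 without the array sets). Atf4, the central transcription factor of this response, was 672, 802 and 1819.8 in LA and 1522, 1477 and 1488 in CLA. The LA array of replicate 3 was above all 3 CLA arrays, while in both other pairs CLA was higher (0.87 ± 0.13, limma adjusted p 0.000389). Ddit3, which encodes the pro-apoptotic factor CHOP, was at 299, 282 and 1011 and 1209, 1133 and 610.5 (1.49 ± 0.30, limma adjusted p 0.00498). Trib3, a pseudokinase target of ATF4, was at 85.5, 106 and 882 and 338, 281 and 185 (1.17 ± 0.33, limma adjusted p 0.0419). For both genes the LA array of replicate 3 was higher than the CLA array of replicate 3. Ppp1r15a, the stress-induced phosphatase subunit GADD34, rose by 2.08 ± 0.20 and the stress protein gene Nupr1 by 0.66 ± 0.16. Ddit4, an inhibitor of mTORC1, was the member called lower (-0.68 ± 0.19). The groups of all 6 overlapped and none was called with the replicate block, where the adjusted p ran from 0.157 to 0.89. Without the LA array of replicate 3 the 5 higher calls stayed and that of Ddit4 was lost (adjusted p 0.125). The difference for Trib3 was above 0 in the fit and in both pairs, while the ratio in the authors' deposited table was 0.924, below 1.

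Of the genes that supply amino acids to translation, 13.3% of the synthesis list, 14.3% of the transporter list and 21.1% of the tRNA synthetase list were called, against 4.26% of all tested genes. Asns (asparagine synthetase) and Got1 (aspartate transaminase) were called higher among 15 amino acid synthesis genes, by 0.48 ± 0.11 and 0.55 ± 0.13, both with overlapping groups. With the replicate block their adjusted p were 0.6 and 0.997, and the estimate for Got1 was -0.01. Among 14 amino acid transporters Slc3a2, the shared heavy chain of several transporters, and Slc7a1, the carrier of cationic amino acids, were called higher. Slc7a1 measured 83.3, 129 and 210.3 in LA and 245, 345 and 278 in CLA (1.03 ± 0.18, limma adjusted p 0.00161, and 0.0435 with the replicate block). Slc3a2 rose by 1.24 ± 0.20, with overlap (0.239 as the adjusted p with the replicate block). Of 19 cytosolic aminoacyl-tRNA synthetases, which charge tRNA, Nars (0.71 ± 0.14), Iars (0.65 ± 0.13), Aars (0.52 ± 0.11) and Tars (0.45 ± 0.12) were called higher, and all but Aars stayed called with the replicate block, where Aars had an adjusted p of 0.618. The list medians were 0.12 for synthesis, -0.04 for transport, which was 0.09 on the intensities as deposited, and 0.22 for the synthetases. Without the array sets they were 0.04, -0.09 and 0.14. None of these 3 lists had a gene called lower.

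Protein folding genes of the cytosol were called above the share of all tested genes, and those of the endoplasmic reticulum near it. Of 15 heat shock genes 7 were called higher and none lower, 46.7% against 4.26% of all tested genes. Their median was 0.54 (0.33 without the array sets). Of 22 chaperones and regulators of the endoplasmic reticulum 1 was called (4.5%), with a median of -0.02 that was 0.12 on the intensities as deposited. The difference between these lists was not tested. Dnaja1, a co-chaperone of HSP70, was 683, 678 and 214 in LA and 1342, 1396 and 1246 in CLA, without overlap (0.96 ± 0.16, limma adjusted p 0.000894). It was the heat shock gene that stayed called with the replicate block (adjusted p 0.0333), the other 6 having values from 0.0669 to 0.893. The small heat shock gene Hspb1 rose by 1.55 ± 0.25 with overlap, and Dnajb4, Hsph1 and Hsp90aa1 by 1.04 ± 0.17, 0.97 ± 0.23 and 0.69 ± 0.19 without overlap. Dnajb1, Hsp90aa1 and Hspb8 lost their calls without the LA array of replicate 3 (adjusted p from 0.06 to 0.117). Hspa5, the abundant chaperone BiP of the endoplasmic reticulum, went from 1572, 2301 and 1439 to 2722, 3743 and 3228 (0.74 ± 0.15, limma adjusted p 0.00708, and 0.0227 with the replicate block). Of 25 proteasome subunits 6 were called higher (24%) and none lower, with differences from 0.56 to 0.76 and a list median of 0.31. Psmd11, a subunit of the regulatory particle, was 1214, 949.6 and 1004 in LA and 2173, 1803 and 1516 in CLA, without overlap. It alone kept its call with the replicate block (adjusted p 0.0116, against 0.0544 to 0.278 for the others), and Psmd14 and Psmd1 lost theirs without the LA array of replicate 3 (0.0585 and 0.103).

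Promoter windows were searched for the motifs that bind these stress factors. A window ran from 250 bases before to 50 bases after a transcription start and came from RefSeq (GRCm38.p6), with 510 of the 616 called genes matched. The letters searched on both strands were TGACNNNGC (antioxidant response element, ARE), TGACGTCA (cyclic AMP response element, CRE), TGAGTCA (AP-1), TGATGNAA (the C/EBP-ATF response element, CARE) and TCACNCCAC (sterol response element, SRE). No match of 1 motif was kept from overlapping that of another. The ARE letters were found in 19.3% of the 311 genes called higher, in 15.6% of the 199 called lower, in 16.5% of the 11614 tested genes with a window and in 14% of all 27025 genes with one. In the same order, the CRE letters were found in 6.11%, 3.52%, 3.19% and 2.03%, the AP-1 letters in 6.43%, 2.01%, 4.98% and 5.95%, the CARE letters in 5.47%, 3.52%, 2.95% and 4.51% and the SRE letters in 1.29%, 0.503%, 1.52% and 1.44%. The tested genes are the nearer background, since every called gene is one of them. These shares are descriptions and were not tested. The 2 genes of smallest p with a match in each stress list gave 8 windows, and 5 of them, picked after the matches were seen and holding all 4 motifs found among the 8, are shown to place the letters around the start of genes called higher, with the matched letters in capitals and the window on the strand of the gene, 5′ to 3′.
Srxn1 (chr2:152105274-152105573, plus strand): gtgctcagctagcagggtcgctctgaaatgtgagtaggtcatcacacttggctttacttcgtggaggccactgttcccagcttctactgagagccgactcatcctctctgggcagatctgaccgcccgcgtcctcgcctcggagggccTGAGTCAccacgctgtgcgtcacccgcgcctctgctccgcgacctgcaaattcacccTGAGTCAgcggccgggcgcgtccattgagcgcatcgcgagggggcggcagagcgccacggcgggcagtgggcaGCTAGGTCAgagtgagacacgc
Gclm (chr3:122245307-122245606, plus strand): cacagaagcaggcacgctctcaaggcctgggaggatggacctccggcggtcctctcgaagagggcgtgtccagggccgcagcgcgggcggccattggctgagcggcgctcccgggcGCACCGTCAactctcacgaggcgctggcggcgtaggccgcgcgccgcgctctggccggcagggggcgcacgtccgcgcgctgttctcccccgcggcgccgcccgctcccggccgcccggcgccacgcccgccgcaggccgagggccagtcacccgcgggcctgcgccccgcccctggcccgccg
Ppp1r15a (chr7:45526219-45526518, minus strand): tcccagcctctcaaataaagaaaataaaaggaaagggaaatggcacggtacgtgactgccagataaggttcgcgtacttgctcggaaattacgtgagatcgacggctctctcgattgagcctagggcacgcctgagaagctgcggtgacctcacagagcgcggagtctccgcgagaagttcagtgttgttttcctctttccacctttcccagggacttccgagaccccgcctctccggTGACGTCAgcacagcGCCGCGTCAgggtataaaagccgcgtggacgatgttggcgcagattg
Asns (chr6:7693160-7693459, minus strand): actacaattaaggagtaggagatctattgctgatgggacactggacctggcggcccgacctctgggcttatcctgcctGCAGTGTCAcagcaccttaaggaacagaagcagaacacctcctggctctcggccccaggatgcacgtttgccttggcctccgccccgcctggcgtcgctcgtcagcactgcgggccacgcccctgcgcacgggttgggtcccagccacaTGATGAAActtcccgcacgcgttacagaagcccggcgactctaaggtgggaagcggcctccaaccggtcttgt
Atf3 (chr1:191183284-191183583, minus strand): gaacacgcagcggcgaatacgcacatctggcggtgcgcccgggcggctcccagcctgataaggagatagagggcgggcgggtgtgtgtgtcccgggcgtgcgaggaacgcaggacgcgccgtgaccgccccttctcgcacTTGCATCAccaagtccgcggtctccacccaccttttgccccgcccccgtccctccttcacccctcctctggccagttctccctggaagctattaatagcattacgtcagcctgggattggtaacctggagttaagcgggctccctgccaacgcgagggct
Srxn1 carried 2 AP-1 matches before its start and an ARE match after it, and Gclm an ARE match. Ppp1r15a had a CRE match just before its start and an ARE match after it. The windows of Asns and Atf3 held a CARE match each, and that of Asns an ARE match too. The windows not shown, of Ddit3, Got1 and Mafk, held 1 match each, of the AP-1, CARE and ARE letters. A match says only that the letters are present.

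Of the inflammatory lists, 27.3% of cytokine signalling, 14.3% of NF-kB, 9.09% of acute phase and 7.14% of chemokine genes were called, all higher, against 2.6% of all tested genes called higher. Of 14 tested chemokine genes only Cxcl1, a chemoattractant of neutrophils, was called, at 474, 42.9 and 189.5 in LA and 2286, 1388 and 543 in CLA. The groups did not overlap, although LA replicate 1 came near CLA replicate 3 (2.99 ± 0.45, limma adjusted p 0.000432, and 0.0516 with the replicate block). Ccl2, which attracts monocytes, was 643, 26.8 and 61.3 in LA and 1002, 178 and 61.3 in CLA and was not called (1.03 ± 0.30, limma adjusted p 0.0589). LA replicate 1 lay above CLA replicates 2 and 3, and the replicate 3 arrays were equal. The list median was 0.25. Of 22 cytokine signalling genes 6 were called higher and none lower, with a median of 0.34. Socs3, the feedback inhibitor of cytokine receptors, was 115, 109 and 96.6 in LA and 469, 246 and 352 in CLA, without overlap (1.33 ± 0.20, limma adjusted p 0.000508). Osmr, the oncostatin M receptor, went from 344, 161 and 81.2 to 766, 604 and 523, also without overlap (1.52 ± 0.27, limma adjusted p 0.00177). Both stayed called with the replicate block. Clcf1, a cytokine of the interleukin 6 family, rose by 1.83 ± 0.34 and Tnfrsf12a, the receptor of TWEAK, by 1.91 ± 0.34. Il6 itself was dim, at 22.6, 0 and 10.4 in LA and 132, 13.2 and 8.6 in CLA, and its call rests on the CLA array of replicate 1 (0.79 ± 0.20, limma adjusted p 0.0223). Its size was 2.46 with the offset at the 25th percentile, where it was not called (adjusted p 0.186), and 0.58 with that at the 75th. The replicate block left Clcf1, Tnfrsf12a, Il6 and Il1r1 with adjusted p from 0.0953 to 0.319, and Il1r1 also lost its call without the LA array of replicate 3 (0.0848). Of 14 NF-kB genes the subunit gene Rela and the co-regulator Nfkbiz were called higher (0.84 ± 0.15 and 0.80 ± 0.18), at a median of 0.49, with adjusted p of 0.557 and 0.113 with the replicate block. Ptx3, a secreted pentraxin, was called among 11 acute phase genes, from 274, 149 and 94.8 in LA to 487, 714 and 512 in CLA (1.37 ± 0.25, limma adjusted p 0.00196). The median of that list, 0.01, was -0.17 without the array sets. Cd14, a co-receptor for bacterial lipopolysaccharide, was the macrophage marker called higher (1.54 on the log2 scale, limma adjusted p 0.000255). Its mean was 37.4 in LA and 129 in CLA, while Adgre1 averaged 59.1 and 22.8 and Lyz2 10.9 and 9.3. The part of other cells in these results was not tested.

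Among fat cell genes Klf15, Cebpa, Slc2a4 and Rxra were lower in CLA, Klf5 and Angptl4 were higher, and Pparg, Adipoq and Fabp4 were not called. In bulk RNA, fewer cells of a type and less RNA per cell cannot be told apart. Of 24 adipocyte identity genes 4 were called lower and 2 higher, against 1.66% and 2.6% of all tested genes, with a median of -0.2. Klf15, a transcription factor that promotes fat cell differentiation and Slc2a4 expression, was 389.6, 207 and 261 in LA and 122, 18.4 and 1 in CLA. All CLA arrays were below LA, the lowest near 0 (-1.76 ± 0.25, limma adjusted p 0.000255, and 0.0227 with the replicate block). Cebpa, the gene of C/EBPα, measured 765, 1458 and 1652 in LA and 315, 829.6 and 277 in CLA. It was lower in each pair, but CLA replicate 2 exceeded LA replicate 1 (-0.94 ± 0.17, limma adjusted p 0.002, and 0.055 with the replicate block). Slc2a4, the insulin-responsive glucose transporter GLUT4, went from 473, 325 and 665 to 239, 55 and 80.5 without overlap (-1.36 ± 0.22, limma adjusted p 0.000874, and 0.0619 with the replicate block). The fourth was Rxra, the partner of PPARγ (-0.47 ± 0.11), which was not called with the replicate block (0.26) or without the LA array of replicate 3 (0.0871). Klf5, an early factor of fat cell differentiation, was higher by 1.61 ± 0.21 and the secreted lipase inhibitor Angptl4 by 0.90 ± 0.22, which the block left with adjusted p of 0.0175 and 0.413. Pparg was 1726, 1047 and 1019 in LA and 1776, 979.8 and 665 in CLA (-0.19 ± 0.15, limma adjusted p 0.586). Adipoq, which encodes adiponectin, was 8703, 7929.9 and 7275 and 9260.2, 6623 and 4497 (-0.10 ± 0.16, limma adjusted p 0.801). For both the CLA array of replicate 3 was the lowest of the 6 and the groups overlapped. Fabp4, the fatty acid binding protein of fat cells, was 9260.2, 8703 and 8703 and 8703, 9260.2 and 7541, repeated values that arise because the brightest ranks take fixed values in quantile normalisation (0.01 ± 0.11, limma adjusted p 0.97). Its estimate was -0.13 on the intensities as deposited and -0.07 with the replicate block.

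**Figure D3:**
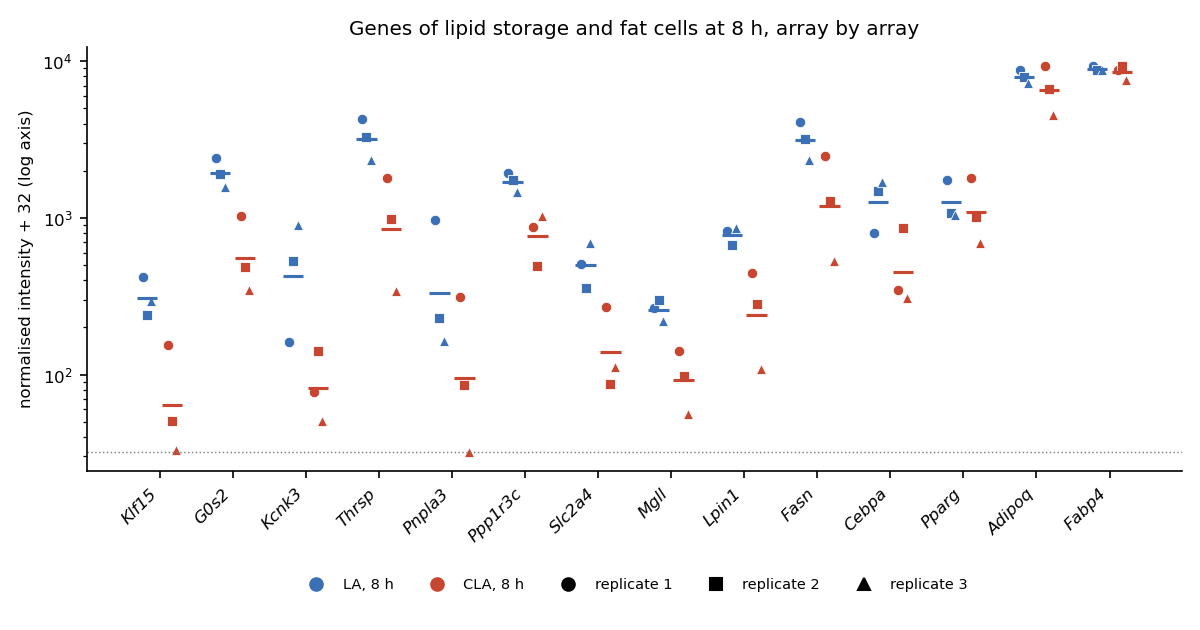
Normalised intensity plus 32 on a log axis for 14 genes of lipid storage and fat cell identity in each of the 3 LA arrays (blue) and 3 CLA arrays (red) at 8 h; bars are means on the log scale, marker shapes give the replicate and the dotted line marks an intensity of 0. Klf15, G0s2, Kcnk3, Thrsp, Ppp1r3c, Slc2a4, Mgll and Lpin1 show no overlap, while Pparg, Adipoq and Fabp4 do and were not called.

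Of the 36 lists, triglyceride synthesis and lipolysis had the most genes called lower, 7 of 21 against 1.66% of all tested genes, with 2 called higher. The list median was -0.4, and it was -0.83 without the array sets or with the replicate block and -0.21 on the intensities as deposited. G0s2, an inhibitor of the lipase ATGL, was 2398, 1876 and 1548 in LA and 999.8, 451 and 313 in CLA, without overlap (-1.65 ± 0.23, limma adjusted p 0.000255). Lpin1, a phosphatidate phosphatase, went from 793, 635 and 836 to 414, 248 and 76.8 (-1.12 ± 0.21, limma adjusted p 0.00295). Mgll, monoacylglycerol lipase, went from 233, 268 and 187 to 109.9, 65.7 and 24.3 (-1.22 ± 0.22, limma adjusted p 0.00178). These 3 genes had no overlap and stayed called with the replicate block. Pnpla3, a droplet-associated acyl hydrolase, varied among the LA arrays, at 941, 198 and 132, and was 280, 53.3 and 0 in CLA (-1.41 ± 0.30, limma adjusted p 0.00916). Gpam and Agpat2, acyltransferases of glycerolipid synthesis, fell by 0.93 ± 0.24 and 0.77 ± 0.20, and Bscl2, which encodes seipin, by 0.63 ± 0.15. Without the LA array of replicate 3 these 3 were not called (adjusted p from 0.0542 to 0.0673). Plin2, a coat protein of lipid droplets, was higher, at 1940.3, 1424 and 3899.8 in LA and 4696, 3235 and 2902 in CLA, with the LA array of replicate 3 above a CLA array (1.08 ± 0.17, limma adjusted p 0.000508). Lpin2, a paralog of Lpin1, was higher by 0.75 ± 0.15. With the replicate block the adjusted p of the 6 genes that lost their calls ran from 0.0716 to 0.379.

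Of 20 fatty acid synthesis genes 3 were called lower and none higher, against 1.66% of all tested genes called lower. The median of -0.03 was 0.03 on the intensities as deposited and -0.29 without the array sets. Thrsp, which encodes the lipogenic protein Spot14, was 4261, 3252 and 2315 in LA and 1772, 952 and 312 in CLA, without overlap (-1.48 ± 0.31, limma adjusted p 0.00678). Fasn, fatty acid synthase, went from 4063, 3145 and 2311 to 2451, 1254 and 499.9, where CLA replicate 1 exceeded LA replicate 3 (-0.96 ± 0.23, limma adjusted p 0.019). Srebf1, the lipogenic transcription factor SREBP1, went from 361, 234 and 599 to 160.1, 165 and 160 (-0.68 ± 0.15, limma adjusted p 0.0112). None of them was called with the replicate block (adjusted p of 0.163, 0.0716 and 0.0891). Genes that burn fatty acids were called at a share near that of all tested genes, 4.35% against 4.26%. Ppargc1b, a coactivator of mitochondrial genes, was the single member called of 23 (-0.73 ± 0.18, adjusted p 0.0469 with the replicate block), at a list median of -0.21 (-0.40 without the array sets and -0.04 as deposited). The 27 genes of the TCA cycle and respiratory chain had no call in limma at 8 h, with a median of -0.13 (-0.35 without the array sets), and Sdhd of succinate dehydrogenase came nearest (-0.49 ± 0.15, adjusted p 0.0751). At 24 h 24 of the 27 and 17 of the 23 were called lower, against 4.92% of all tested genes, in the fit with array sets. A call at 24 h and none at 8 h is not itself a test between the times. In the limma test of 8 h against 24 h, Cox5b and Cox7a1 of the 27 had adjusted p of 0.793 and 0.323. Both were named for their small p at 8 h, so they do not stand for the other members.

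The glucose transporter genes Slc2a1 and Slc2a4 moved in opposite directions. Slc2a1, the basal transporter GLUT1, was 259.6, 364 and 554 in LA and 1724, 1105 and 1318 in CLA, without overlap (1.81 ± 0.28, limma adjusted p 0.000464, and 0.0174 with the replicate block), while Slc2a4 fell. Slc2a1 was the single call in a list of 20 genes of glucose uptake and glycolysis that does not include Slc2a4, and the list median was -0.16. Its share called, 5%, is near the 4.26% of all tested genes. The shares called were 11.1% in insulin signalling and 13% in adipokines and secreted factors, described next. In insulin signalling Akt2, a kinase downstream of the receptor, and Tbc1d4, which links it to GLUT4 traffic, were called lower among 18 (-0.54 ± 0.15 and -0.42 ± 0.12). They had adjusted p of 0.177 and 0.577 with the replicate block, and the list median of -0.17 was 0.03 on the intensities as deposited. None of 13 hormone and growth factor receptors was called in limma, with a median of -0.05 that was 0.09 on the intensities as deposited, and Klb, the co-receptor of FGF21, came nearest (-0.83 ± 0.28, adjusted p 0.107). Among 23 adipokine and secreted factor genes Apln (apelin) and Apoc1 (an apolipoprotein) were called lower by 0.83 ± 0.22 and 1.01 ± 0.27 and Metrnl (a secreted hormone-like protein) higher by 0.64 ± 0.18. All 3 overlapped between the groups and were called neither with the replicate block (adjusted p from 0.16 to 0.403) nor without the LA array of replicate 3 (from 0.0544 to 0.0787). The list median was -0.19. Lep, the leptin gene, was at 0 in 4 of the 6 arrays and at 49.3 and 20.8 in LA and CLA replicate 1.

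Of 21 tested genes of cholesterol synthesis and uptake 5 were called higher and none lower, against 2.6% of all tested genes called higher. The list median was 0.31, and 0.13 without the array sets or with the replicate block. Hsd17b7, an enzyme of the pathway, was 249, 64.9 and 61.3 in LA and 639, 144 and 73.1 in CLA (0.94 ± 0.13, limma adjusted p 0.00018). Idi1, Msmo1, Sc5d and Cyp51, further enzymes of the pathway, rose by 0.69 ± 0.12, 0.79 ± 0.14, 0.67 ± 0.13 and 0.99 ± 0.21. In each of the 5 the LA array of replicate 1 or 2 exceeded a CLA array, and with the replicate block their adjusted p ran from 0.166 to 0.461. Zfp36, which encodes the mRNA decay factor tristetraprolin, was the single member called of 11 RNA-binding regulators of decay. It went from 56.3, 223 and 324 to 474, 848 and 365 (1.98 ± 0.26, limma adjusted p 0.000151, and 0.166 with the replicate block), at a list median of 0.24. Of 22 genes of ribosome biogenesis and translation 6 were called higher and none lower, by 0.5 to 0.89, with a median of 0.36. Nop58, a nucleolar protein, kept its call with the replicate block (adjusted p 0.0223), and the other 5 had values from 0.0851 to 0.768. Eif2s2, Wdr43 and Rrp12 lost their calls without the LA array of replicate 3 (0.0665 to 0.125).

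Damage response and survival genes were called in both directions, 6 of 21 higher and 1 lower, at a median of 0.15 (0.34 without the array sets). This is 33.3% of the list, against 4.26% of all tested genes called. Mdm2, the inhibitor of p53 and 1 of the 5 most abundant genes called higher, was 2775, 3206 and 1798 in LA and 4631, 4416 and 3899.8 in CLA, without overlap (0.63 ± 0.13, limma adjusted p 0.00588). Bcl10, an adaptor of NF-kB signalling, rose by 0.998 ± 0.16, and both kept their calls with the replicate block. Gadd45a, a stress sensor, rose by 1.42 ± 0.18, the survival factor gene Mcl1 by 0.73 ± 0.13, the cell cycle inhibitor gene Cdkn1a by 0.80 ± 0.15 and the inflammatory caspase gene Casp4 by 0.82 ± 0.23, whereas Gadd45g fell by 0.66 ± 0.18. With the block those 5 had adjusted p from 0.0522 to 0.692, and Gadd45g and Casp4 also lost their calls without the LA array of replicate 3 (0.117 and 0.129). None of 27 cell cycle genes was called in limma (median 0.03; Plk3, a stress-responsive kinase, came nearest with an adjusted p of 0.0523). None of 14 preadipocyte and mesenchymal genes was called either (median 0.11), and Vim, the intermediate filament gene, was 3197, 4631 and 4351 in LA and 3639, 5424 and 6431 in CLA. Of 31 matrix genes Thbs1 (thrombospondin), Adamts1 (a secreted protease) and Mmp13 (a collagenase) were called higher by 1.63 ± 0.29, 1.09 ± 0.22 and 1.39 ± 0.40, at a median of 0.21. This is 9.68% of the list. Mmp13 was dim, at 4.6, 9.3 and 2.1 in LA and 20.9, 155 and 32 in CLA, so that its size depends on the offset (3.34 and 1.02 with offsets at the 25th and 75th percentile). It was not called with the larger offset, with the replicate block (0.187) or without the LA array of replicate 3 (0.116). Of 18 SRF and actin genes Ccn1 (1.59 ± 0.36), Tpm4 (0.79 ± 0.20) and Vcl (0.64 ± 0.15) were called higher (16.7% of the list), at a median of 0.33. The block left them with adjusted p of 0.0951, 0.0516 and 0.147, and Tpm4 and Vcl were not called without the LA array of replicate 3 (0.0657 and 0.0793). The clock repressor genes Nr1d1 and Nr1d2 were called higher among 17 clock genes by 0.88 ± 0.20 and 0.61 ± 0.15, with a median of 0.09, overlapping groups and block values of 0.866 and 0.195. This is 11.8% of the list. Nr1d2 lost its call without the LA array of replicate 3 (0.107). Gabarapl1, an autophagosome protein gene, was the single call among 19 autophagy and lysosome genes (0.997 ± 0.17, adjusted p 0.513 with the replicate block), and the median of -0.05 was 0.16 on the intensities as deposited. The share called there, 5.26%, is near that of all tested genes.

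**Figure D4:**
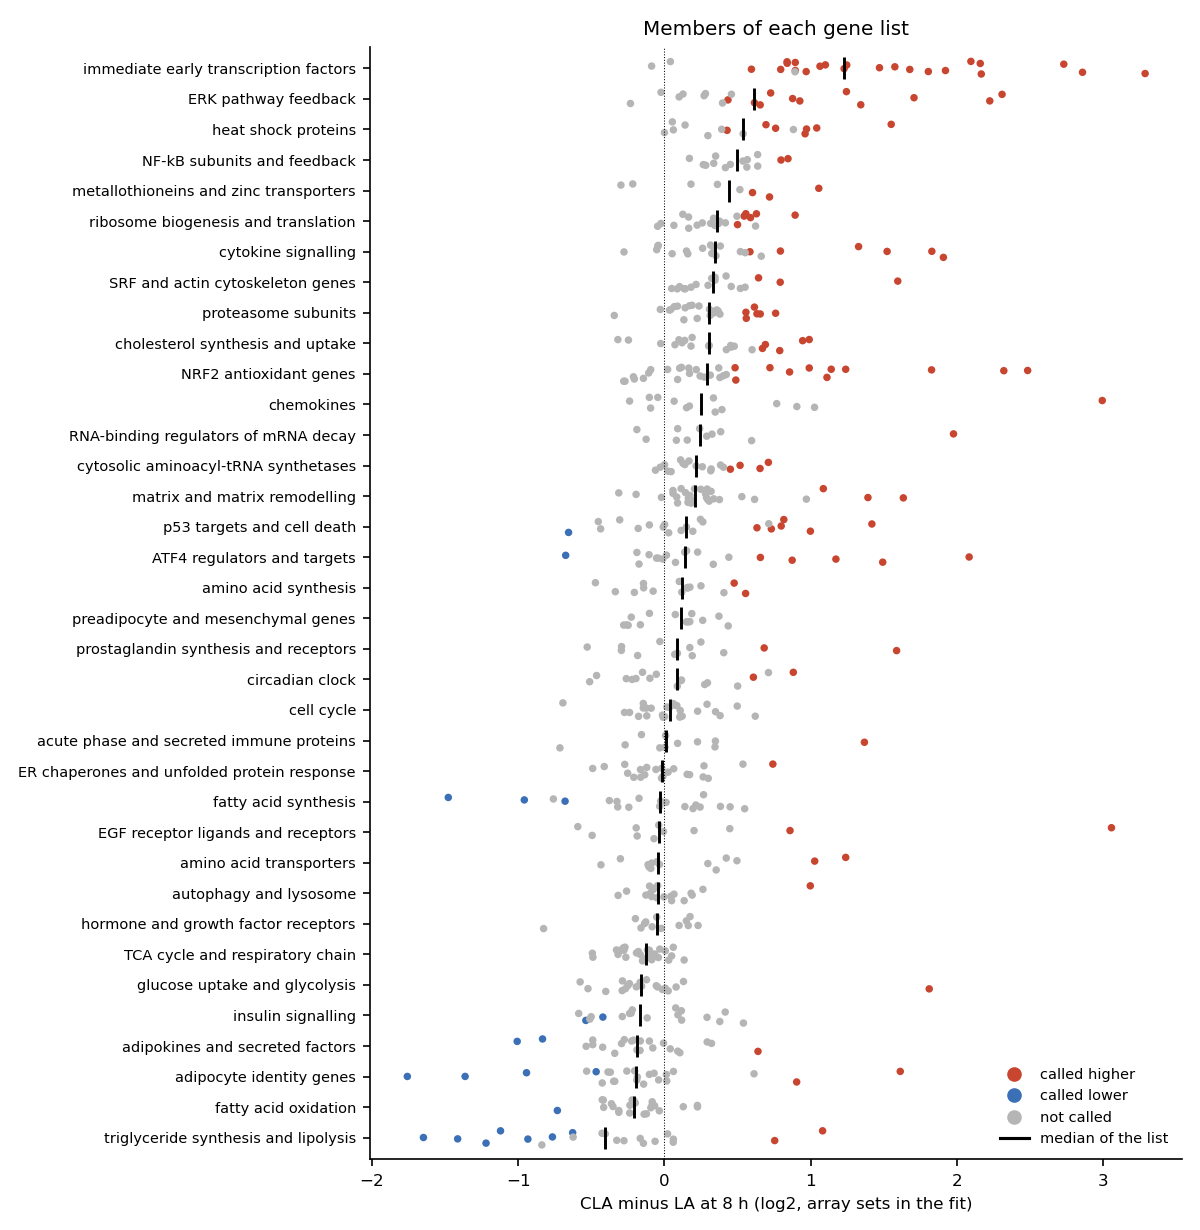
Difference between CLA and LA at 8 h (log2) for each tested member of the 36 gene lists, ordered by the list median (black bar); members are red where called higher, blue where called lower and grey where not called. The immediate early factors lie at the top with 22 of 25 called higher, and triglyceride synthesis and lipolysis lies at the bottom with 7 of 21 called lower.

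Several of the largest changes fell outside these lists. Tgif1, a repressor of TGF-beta signalling, was 53, 32.3 and 207 in LA and 448, 469.6 and 271 in CLA, without overlap (2.38 ± 0.26, limma adjusted p 1.07e-05). Chka, choline kinase, went from 61.8, 51.7 and 177 to 262, 499.9 and 269 (2.12 ± 0.23, limma adjusted p 1.07e-05, and 0.108 with the replicate block). Sprr1a, an epithelial small proline-rich protein, ran from 10.9, 13.1 and 87.3 to 56.5, 386 and 150, and the LA array of replicate 3 overlapped CLA (2.12 ± 0.35, limma adjusted p 0.000896, and 0.164 with the replicate block). On the lower side Kcnk3, a background potassium channel, was 129, 495 and 869 in LA and 45, 110 and 18.5 in CLA (-1.58 ± 0.23, limma adjusted p 0.000341). Ppp1r3c, a subunit that directs protein phosphatase to glycogen, went from 1892, 1712 and 1431 to 842, 464 and 994 (-1.38 ± 0.31, limma adjusted p 0.0117, and 0.162 with the replicate block). Both were without overlap. Hdhd3, a phosphatase-like protein, fell by 1.23 ± 0.18, the peroxisomal membrane protein gene Pxmp2 by 1.22 ± 0.19, Kctd14 by 1.19 ± 0.22 and Selenbp1, a selenium binding protein, by 1.17 ± 0.23. Of the 15 largest rises 8 stayed called with the replicate block and of the 15 largest falls 9 did. The remaining adjusted p ran from 0.0516 to 0.164 among the rises and from 0.0619 to 0.192 among the falls. All 30 stayed called without the LA array of replicate 3. Among the most abundant called genes, Anxa2, an actin and membrane binding annexin, rose by 0.70 ± 0.17, and Mrpl51 of the mitochondrial ribosome and Atp5o of the ATP synthase fell by 0.56 ± 0.16 and 0.47 ± 0.12. Their adjusted p with the replicate block were 0.053, 0.0851 and 0.053.

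The LA array of replicate 3 was the highest LA array for 39.6% of the genes called higher and for 46.2% of all tested genes. Of the 175 genes called higher whose groups overlapped, it was the highest LA array in 99. Without this array 352 of the 616 calls remained.

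The difference at 8 h was then set against that at the other time points, each of which has LA arrays of its own. The number of arrays was 5 at 4 h, 6 at 8 h, 8 at 12 h and 6 at 24 h. In that order the SE for Atf3 was 0.29, 0.27, 0.22 and 0.25. Counts of calls at different times therefore do not compare like with like. At 4 h 11 genes were called (0.0761% of those tested), 6 of them with the same sign at 8 h, which is 54.5% of the 4 h list and 0.974% of the 8 h list. At 12 h 1116 were called (7.72%), and 391 were shared in sign, 63.5% of the 8 h list and 35% of the 12 h list. At 24 h 1070 were called (7.4%), and 223 were shared in sign, 36.2% of the 8 h list and 20.8% of the 24 h list, while 3 had the opposite sign. Of the genes shared at 24 h 97 were higher and 126 lower at both times. In tests of the difference itself, limma called 0 genes between 8 h and 4 h and 0 between 8 h and 12 h. At an unadjusted p under 0.05 there were 1685 genes (11.7%) against 4 h and 532 (3.68%) against 12 h. A share of 0.05 is expected there with no difference. Between 8 h and 24 h limma called 17 genes, 0.118% of those tested, and 0 with the replicate block or without the array sets.

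Among those 17, genes of 3 patterns appeared in the 10 with the smallest p. Noct, a clock-linked phosphatase also called nocturnin, was 1.24 ± 0.21 at 8 h and -0.89 ± 0.20 at 24 h. Dusp4, the ERK phosphatase, was 0.93 ± 0.21 and -0.89 ± 0.20, and Cyp51, of cholesterol synthesis, 0.99 ± 0.21 and -0.70 ± 0.20. These were higher in CLA at 8 h and below LA at 24 h. Thrsp fell by 1.48 ± 0.31 at 8 h and fell by 4.09 ± 0.29 at 24 h, and Mrap, an accessory protein of melanocortin receptors, was -0.68 ± 0.22 at 8 h, where it was not called, and -2.55 ± 0.21 at 24 h. Phlda1 and Uap1, an enzyme of UDP-sugar synthesis, were higher at 8 h (1.71 ± 0.18 and 1.03 ± 0.14) and near 0 at 24 h (0.26 ± 0.17 and -0.01 ± 0.13).

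**Figure D5:**
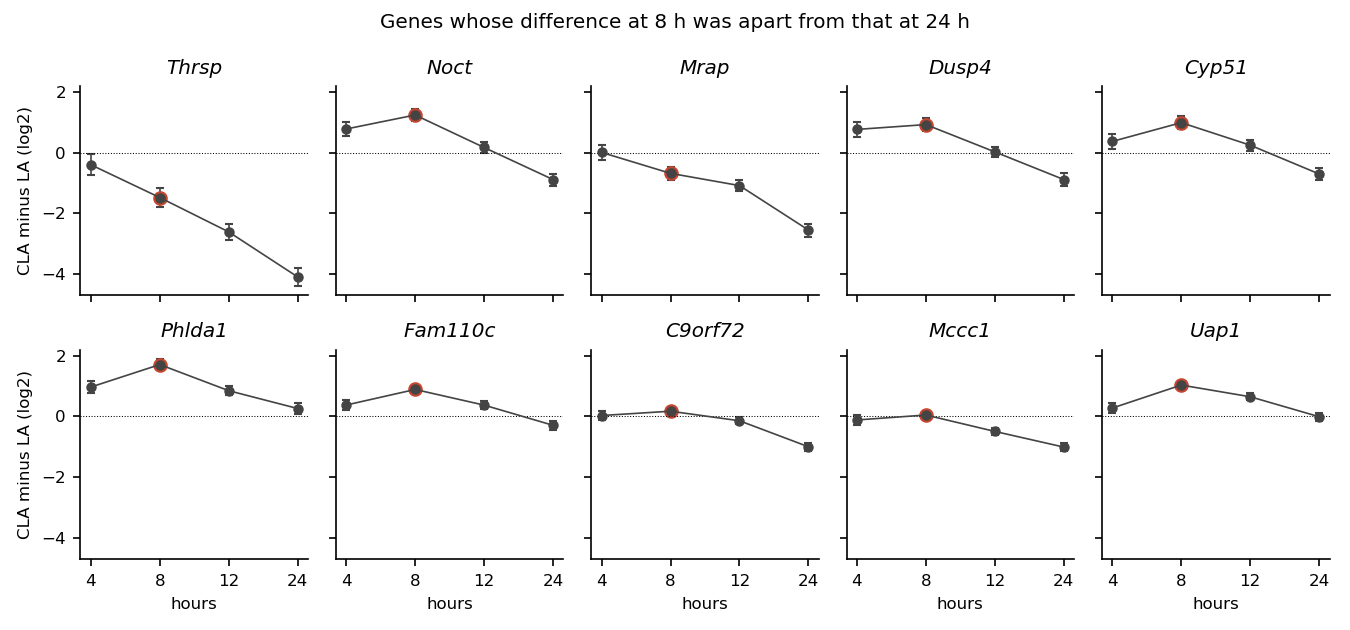
Difference between CLA and LA (log2, with the SE of the fit) at 4, 8, 12 and 24 h, drawn at even spacing, for the 10 genes with the smallest p in the test of 8 h against 24 h; the 8 h value is ringed in red. Noct, Dusp4 and Cyp51 are above 0 at 8 h and below 0 at 24 h, and Thrsp falls from -1.48 at 8 h to -4.09 at 24 h.

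The authors' deposited table for 8 h gives a ratio and a p for each probe set, and its ratio was read as CLA over LA from its correlation with the plain difference. On that reading 614 of the 616 called genes had a ratio on the same side in the authors' deposited table, as did 77.5% of all tested genes. A p under 0.01 was given by the authors' deposited table for 258 of the 616, against 3.02% of all tested genes. For Atf3 the authors' deposited table gives a ratio of 16.3, for Hmox1 3.77, for G0s2 0.292 and for Slc2a4 0.337. These values come from the same arrays and are not independent of the fit.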

How the data were processed

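Total RNA of 3T3-L1 adipocytes was extracted with Trizol, made into biotin-labelled cRNA and hybridised to single-colour Affymetrix mouse arrays, per the labels' protocols. The values used are the deposited intensities, linear and already background-subtracted by the authors, with 21.6% at or below 0; how they were scaled is not stated in the labels. The authors' deposited table adds a ratio, a log10 ratio and a p-value for each probe set. Values were floored at 0, raised by 32, log2 transformed and quantile normalised, the offset being larger than the 25th percentile of all values (0.984) because small offsets stretch dim genes. Of 45101 probe sets, 34958 had 1 gene symbol, 932 several and 9211 none, and the brightest probe set stood for each of 18194 genes. Of these, 14457 exceeded the array median on at least 2 arrays. limma 3.58.1 in R 4.3.3 fitted the 8 group means and 5 array sets to all 25 arrays (lmFit, eBayes, Benjamini-Hochberg adjustment, threshold 0.05). The array sets came from Ward clustering of the 2000 most variable probe sets. The fit was run on data simulated from the fitted model itself, with the array sets taken as known. That run could not test the choice of the array sets.

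The replicate numbers, taken from the labels, were treated as pairs because same-numbered LA and CLA arrays of 8 h deviated together from their group means, with correlations above 0.1 (0.604, 0.292 and 0.149). The pairing of replicate 3 is weak, since its LA array correlated more with CLA replicate 2 (0.229). LA replicate 2 with CLA replicate 3 was also above 0.1 (0.11), so that cut does not set same-numbered arrays apart. The design does not say what a number shares. The array number limits precision. The genes named were the 15 largest rises and falls among called genes with 1 sign in every array set holding both feeds and a mean intensity of at least 50 in the higher group, the called members of each list (up to 8 by p, or up to 3 where none was called), the 5 most abundant called genes each way, 14 key genes and up to 10 genes by p in each test between times. Cd14, Adgre1, Lyz2, Birc3, Ammecr1l and list members named only for a lost call were named after their values were seen. The comparison, the gene lists and the array-set term were chosen with earlier results of these data known. Alternatives varied the array sets, offset, scaling, filter, probe sets and arrays. The 6 arrays alone, the other time points and the authors' table were also compared.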

Additional observations from a re-analysis of the deposited data

Results flagged for a closer look

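In a limma test of the difference itself over all 14457 genes, the difference between CLA and LA at 8 h was apart from that at 24 h for 17 genes. The 10 with the smallest p are given here. Noct stood 2.13 ± 0.29 higher at 8 h than at 24 h on the log2 scale (adjusted p 0.00346), Thrsp 2.62 ± 0.42 (0.0134), Mrap 1.87 ± 0.31 (0.0134), Dusp4 1.81 ± 0.29 (0.0134) and Cyp51 1.69 ± 0.30 (0.0186). Phlda1 stood 1.45 ± 0.25 higher (0.0157), Fam110c 1.18 ± 0.20 (0.0159), C9orf72 1.17 ± 0.19 (0.0134), Mccc1 1.06 ± 0.20 (0.0321) and Uap1 1.04 ± 0.19 (0.0318). C9orf72 and Mccc1, a subunit of an enzyme of leucine breakdown, were not called at 8 h (0.17 ± 0.14 and 0.04 ± 0.14) and lay below LA at 24 h (-1 ± 0.13 and -1.01 ± 0.14). Fam110c was 0.89 ± 0.15 at 8 h and -0.29 ± 0.14 at 24 h. With the replicate block, or without the array sets, limma called none of the 14457 genes in this test. In the fit with array sets 1073 genes (7.42%) had an unadjusted p under 0.05, where a share of 0.05 is expected with no difference. The 8 h and 24 h arrays lie in partly different array sets, and the part of the sets in these differences was not tested. Groups of 3 arrays are too small for a test of single outlying arrays, and none was made.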

How the results depend on the processing

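Of the 616 genes called at 8 h (376 higher, 240 lower), 5 were called without the array-set term (4 higher, 1 lower) and 103 with the replicate block in place of the array sets (65 higher, 38 lower). The 6 arrays of 8 h alone gave 0 calls in either direction, without or with the replicate block, and 4 arrays, of replicates 1 and 2, gave 8, all higher (0 lower). The cause was not tested, but these fits have larger standard errors (median 0.246 without array sets and 0.194 with the block, against 0.147) or fewer arrays. The offset at the 25th percentile gave 261 (180 higher, 81 lower), the intensities as deposited 270 (15 lower), median centring 39 lower, genes above the 75th percentile 379 lower, the array set as a random block 158 lower out of 411 calls, and the fit without both replicate 3 arrays 350 (236 higher, 114 lower). Leaving out 1 array of 8 h gave 184 to 504 calls (142 to 323 higher, 42 to 181 lower). The random block and the fits without both replicate 3 arrays were chosen after seeing the data. For 8 h against 24 h the 17 calls became 0 without array sets, with the replicate block and with the offset at the 25th percentile, 1 as deposited, 5 median centred and 1 to 13 without 1 array, and for 8 h against 4 h the count became 1 with the offset at the 25th percentile and 0 to 1 without 1 array.

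Without the array sets, with the replicate block, and in the 6 arrays alone with or without it, the estimates were -0.066 for C9orf72, -0.069 for Fabp4, -0.0063 for Got1, -0.10 for Hspb8 and -0.056 for Mccc1. These fits share 1 estimate for each gene by design, so their agreement is not further evidence. Fabp4 was -0.13 as deposited, -0.16 median centred and -0.071 as the mean of its probe sets, where Mccc1 was -0.011. Over the fits without 1 array of 8 h, Fabp4 ran from -0.050 to 0.073, Mccc1 from -0.0073 to 0.10 and Lep from -0.32 to 0.0069. As log2 ratios of the authors' deposited table, C9orf72 was -0.16, Fabp4 -0.19, Got1 -0.0036, Mccc1 -0.17 and Trib3 -0.11. The other genes compared this way kept their sign. Among the values of named genes at 8 h and between 8 h and 24 h, 144 were no longer past the threshold without the array sets, 108 with the replicate block, 64 as deposited, 61 with the offset at the 25th percentile and 32 after median centring, with their direction kept. Signal near background limits the sizes of dim genes, as Ereg ran from 2.58 to 4.28 over the offsets.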
